A study of Penicillium oxalicum with 12 samples.

Results

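Bgl1 and Bgl2 are the extracellular and the intracellular beta-glucosidase of Penicillium oxalicum, a filamentous fungus that secretes enzymes which break down plant cell walls. They were taken by their locus tags, PDE_02736 for Bgl1 and PDE_00579 for Bgl2, so they are 2 of the 9979 genes in the deposited table. The rule that picked them used no measured value, though earlier results of these data were known when it was set. Transcript levels were compared in 12 mRNA libraries, 3 from each of 4 strains. The gCXC strain expresses a chimeric transcription factor called CXC, gXlnRC expresses the XlnR regulator with the substitution A871V, gAraRC expresses the AraR regulator with the substitution A731V, and WT, the control, is the wild type 114-2. All strains grew for 24 h with 2% glucose and were then starved of carbon for 4 h while shaken at 200 rpm and 30 °C, so every library, WT included, comes from carbon-starved mycelium. The 3 libraries of a strain are biological replicates, per the series' design text. How the factors were introduced, the promoters that drive them, the number of transformants and whether the native regulator genes were kept were not stated in the labels. The deposited table pairs no tag with a name, so the factors' own transcripts could not be used to check the labels.

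Cellulose is degraded outside the hypha by endoglucanases and cellobiohydrolases, whose main soluble product is the disaccharide cellobiose. Beta-glucosidases split cellobiose into glucose. A secreted beta-glucosidase such as Bgl1 does so in the medium and relieves the inhibition of cellobiohydrolases by their own product, while an intracellular one such as Bgl2 acts on cellobiose that has been taken up and so removes a sugar that can serve as an inducer of cellulase genes. XlnR is known in Aspergillus species as an activator of xylanase and cellulase genes, and AraR there as a regulator of genes for the use of arabinose.

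Levels are given as FPKM, which scales the fragments of a gene to its length and to a total for its library and so allows the 2 genes to be set side by side. The reads behind them could be recovered from the values (between 14549534 and 20092360 reads counted in genes per library). Bgl1 rested on 4932 to 23191 reads per library and Bgl2 on 470 to 7731, with recovered gene lengths of 2586 and 1452 nucleotides. Changes are differences of log2(FPKM + 1) with their standard errors from limma, fitted to all 12 libraries and 9125 tested genes, and a gene was called at a Benjamini-Hochberg adjusted p below 0.05. The RNA came from whole mycelia, so more transcript per cell and more cells that carry it cannot be told apart.

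Both beta-glucosidase genes were higher in all 3 engineered strains than in WT, but the strain in which each stood highest was a different one. Bgl1 stood highest in gAraRC, at 3.70 times its WT mean, and Bgl2 stood highest in gCXC, at 12.9 times its WT mean. In gXlnRC both rises were below 2-fold, at 1.79 times for Bgl1 and 1.47 times for Bgl2.

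**Figure D1:**
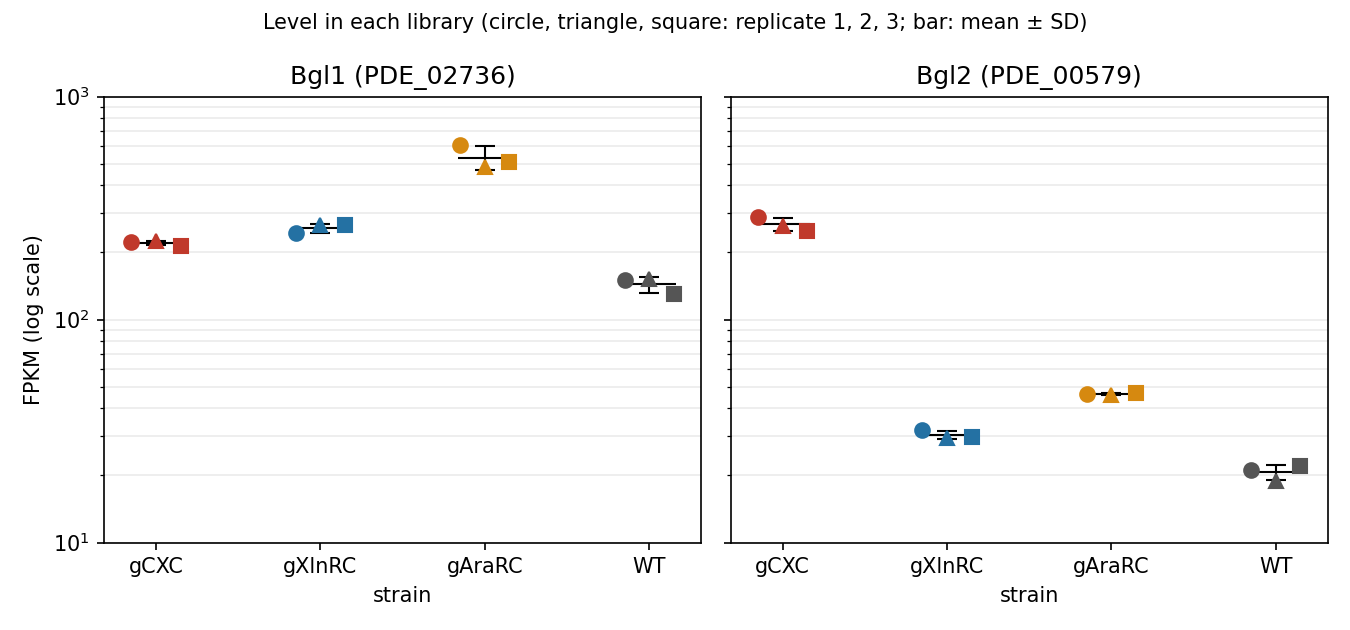
Level of Bgl1 (left) and Bgl2 (right) in FPKM on a log axis, by strain, with a circle, triangle and square for replicates 1, 2 and 3 and a bar for the mean ± SD (n = 3). Bgl1 lies between 483 and 606 FPKM in gAraRC and between 129.9 and 151 FPKM in WT, while Bgl2 lies between 250.1 and 287 FPKM in gCXC and between 18.8 and 22.0 FPKM in WT.

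For Bgl1, the secreted enzyme, the 3 gAraRC libraries had 606, 483 and 507 FPKM. The gXlnRC libraries had 244, 264 and 264 FPKM, the gCXC libraries 222, 224 and 214 FPKM, and the WT libraries 149.8, 151 and 129.9 FPKM. The 4 strains formed 4 separate bands with no overlap, in the order gAraRC, gXlnRC, gCXC and WT from high to low. Means were 532 ± 64.9 FPKM in gAraRC, 257 ± 12.0 in gXlnRC, 220.2 ± 5.30 in gCXC and 144 ± 12.0 in WT (SD, n = 3 each).

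Against WT, the log2 change of Bgl1 was 1.88 ± 0.08 in gAraRC (limma, adjusted p = 1.30e-09). It was 0.84 ± 0.08 in gXlnRC (adjusted p = 4.36e-06) and 0.62 ± 0.08 in gCXC (adjusted p = 8.19e-05). Calls were common in these comparisons, at 76.1% of tested genes in gAraRC, 54.6% in gXlnRC and 50.3% in gCXC, so a call by itself sets Bgl1 apart little. A larger rise than that of Bgl1 was found for 178 of the 9125 tested genes in gAraRC (1.95%), for 400 in gXlnRC (4.38%) and for 470 in gCXC (5.15%). With falls counted too, 5.08% of tested genes in gAraRC, 12.4% in gXlnRC and 16.3% in gCXC changed by more than Bgl1.

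The Bgl1 level was least even in gAraRC, where replicate 1 was well above the other libraries of that strain. The spread between the 3 gAraRC libraries was 12.2% of their mean, while counting error at that depth would give 0.684%. Across all genes, gAraRC replicate 1 also differed more from replicates 2 and 3 (chi-square per degree of freedom of 53.4 and 64.7) than these differed from each other (5.24). Without it, the log2 change of Bgl1 in gAraRC against WT was 1.78, so the call did not rest on that library.

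For Bgl2, the intracellular enzyme, the gCXC libraries had 287, 264 and 250.1 FPKM. The gAraRC libraries had 46.2, 45.8 and 47.1 FPKM, the gXlnRC libraries 31.9, 29.4 and 29.8 FPKM, and the WT libraries 21.2, 18.8 and 22.0 FPKM. Again the strains did not overlap, now in the order gCXC, gAraRC, gXlnRC and WT. On a log scale, the gap below gCXC was the widest of either gene. Means were 267 ± 18.6 FPKM in gCXC, 46.4 ± 0.649 in gAraRC, 30.4 ± 1.35 in gXlnRC and 20.7 ± 1.66 in WT (SD, n = 3 each).

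The log2 change of Bgl2 against WT was 3.63 ± 0.07 in gCXC (limma, adjusted p = 1.19e-12). This was among the largest rises of that strain: 16 of 9125 tested genes (0.175%) had a larger one, and 36 changed by more in either direction. Bgl2 also rose in gAraRC, by 1.13 ± 0.07 (adjusted p = 1.57e-08), and in gXlnRC, by 0.53 ± 0.07 (adjusted p = 3.37e-05). A larger rise was found for 488 tested genes (5.35%) in gAraRC and 760 (8.33%) in gXlnRC, and 17.3% and 24.4% changed by more in either direction. The spread of Bgl2 between gAraRC libraries, 1.40% of the mean, was below the 3.09% that counting error alone would give, whereas the standard errors above draw on the spread of all genes.

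**Figure D2:**
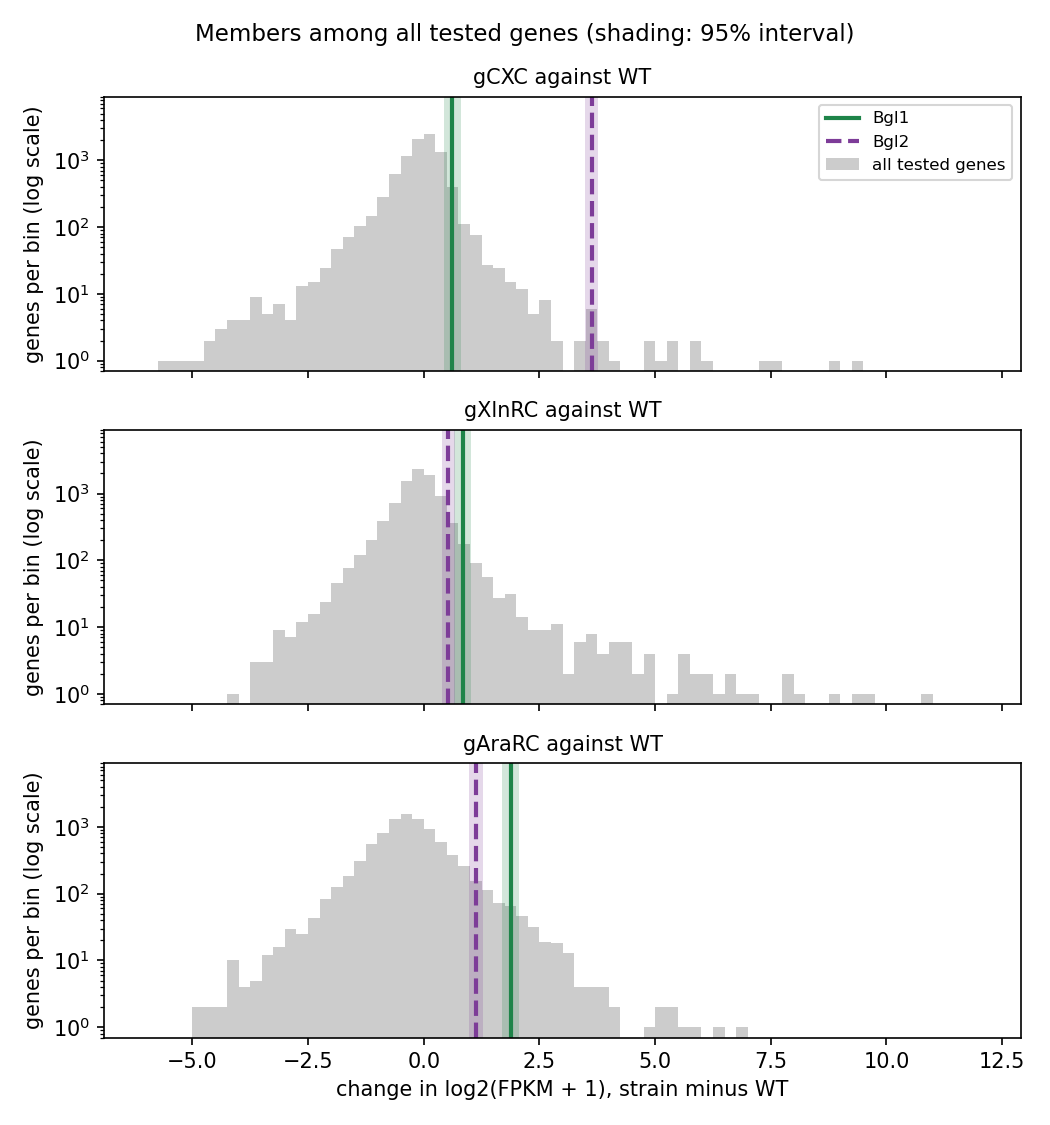
Number of tested genes (log axis) by change in log2(FPKM + 1), strain minus WT, in bins of 0.25, with the change of Bgl1 (solid line) and Bgl2 (dashed line) and their 95% intervals (shading). In gCXC Bgl2 lies far to the right at 3.63 and Bgl1 at 0.62, while in gAraRC Bgl1 lies to the right of Bgl2, at 1.88 against 1.13.

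The deposited values carry a shift between libraries that touches these sizes. The median change of all tested genes was -0.34 in gAraRC, -0.10 in gXlnRC and -0.0026 in gCXC, each against WT, and the FPKM values of a library summed to less in every engineered library than in any WT library. With the libraries scaled by the median of ratios, which removes the shift, the log2 changes in gAraRC became 2.23 for Bgl1 and 1.47 for Bgl2. In gXlnRC they became 0.95 and 0.64, and in gCXC 0.64 and 3.65. Both genes kept their rise and their call in the 3 engineered strains under this scaling, under scaling to a common sum and under quantile normalization.

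Their place among the transcripts of the same library, which scaling does not alter, moved in the same way. Bgl2 was the 612th to 701st most abundant gene by FPKM in gCXC, 2678th to 2757th in gAraRC, 3972nd to 4158th in gXlnRC and 5030th to 5410th in WT, out of 9979. Bgl1 ranked 243rd to 297th in gAraRC, 568th to 642nd in gXlnRC, 790th to 832nd in gCXC and 1163rd to 1343rd in WT. By FPKM, Bgl2 thus stood above Bgl1 in gCXC, and near the middle of the transcriptome in WT. As a share of the reads counted in genes, not divided by length, Bgl1 took 0.138% ± 0.0168 in gAraRC. It took 0.0570% ± 0.00137 in gCXC and 0.0372% ± 0.00310 in WT. Bgl2 took 0.0388% ± 0.00270 in gCXC, below Bgl1, and 0.00300% ± 0.000241 in WT (SD, n = 3 each).

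The engineered strains were also compared directly with each other. Bgl2 was higher in gCXC than in gXlnRC by 3.09 ± 0.07 on the log2 scale (limma, adjusted p = 4.57e-12) and higher in gCXC than in gAraRC by 2.50 ± 0.07 (adjusted p = 2.48e-11). In the first of these comparisons 12 tested genes were higher in gCXC by more than Bgl2, and in the second 64. Counted in either direction, 59 and 150 tested genes changed by more. Between gXlnRC and gAraRC, Bgl2 was lower in gXlnRC, with a change of -0.60 ± 0.07 (adjusted p = 6.56e-06). There 39.4% of tested genes changed by more in either direction. Calls were made for 58.6% of tested genes between gCXC and gXlnRC, 75.2% between gCXC and gAraRC and 72.5% between gXlnRC and gAraRC.

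Bgl1 ran the other way between gCXC and gAraRC, being lower in gCXC, with a change of -1.26 ± 0.08 (limma, adjusted p = 3.55e-08). It was lower in gXlnRC than in gAraRC as well, with a change of -1.04 ± 0.08 (adjusted p = 2.93e-07). Between gCXC and gAraRC 13.4% of tested genes changed by more than Bgl1 in either direction, and between gXlnRC and gAraRC 16.4%. Between gCXC and gXlnRC the Bgl1 levels were close, and 61.7% of tested genes changed by more in either direction. The change was -0.22 ± 0.08, with a 95% interval of -0.41 to -0.04 and an adjusted p of 0.0371 (limma). That call was lost when any 1 of the gCXC libraries or gXlnRC replicate 2 or 3 was left out, with adjusted p values of 0.0645 to 0.102, and with a prior variance without a trend (adjusted p = 0.0518). It held when any of the remaining libraries was left out (limma, adjusted p from 0.00901 without gAraRC replicate 1 to 0.0428 without WT replicate 2). It also held with the other scalings, at -0.31 by the median of ratios (adjusted p = 0.0104) and -0.40 by quantile normalization (adjusted p = 0.000907). In a test for any difference among the 4 strains, both genes passed (limma moderated F, adjusted p = 5.17e-09 for Bgl1 and 1.63e-12 for Bgl2), as did 91.5% of tested genes, with Bgl2 ranked 40th and Bgl1 752nd of 9125 by the F statistic.

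The ratio of Bgl1 to Bgl2 within a library is not altered by a scaling factor for the library, though quantile normalization can move it, and it sets the secreted against the intracellular enzyme. In gCXC the ratio was 0.775, 0.850 and 0.857, so the intracellular Bgl2 was the more abundant transcript per length. In gAraRC it was 13.1, 10.5 and 10.8, in gXlnRC 7.64, 8.99 and 8.88, and in WT 7.07, 8.03 and 5.89. By FPKM, Bgl1 was thus several times more abundant than Bgl2 in each of the 9 other libraries. The order of the genes by FPKM turned in the 3 gCXC libraries. That turn rests on the division by gene length. In reads, Bgl1 stayed above Bgl2 in gCXC, with 10664, 9294 and 8945 against 7731, 6136 and 5862.

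On the log2 scale the ratio averaged -0.28 ± 0.08 in gCXC, 3.51 ± 0.17 in gAraRC, 3.08 ± 0.13 in gXlnRC and 2.80 ± 0.22 in WT (SD, n = 3 each). Over the 15400 ways to divide 12 libraries into 4 groups of 3, the strains differed with an exact permutation p of 0.000130, where 6.49e-05 is the smallest possible. The difference from WT was -3.07 ± 0.14 in gCXC (SE), and the libraries did not overlap. In gAraRC it was 0.72 ± 0.16, again with no overlap, so in these libraries Bgl1 rose more than Bgl2. For gCXC and gAraRC the exact two-sided permutation p was 0.1, which is the smallest that 3 against 3 libraries can give (0.12 when adjusted over the 6 pairs of strains).

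In gXlnRC the ratio was not shown to differ from that in WT. The difference was 0.29 ± 0.15 (SE), WT replicate 2 lay above gXlnRC replicate 1, and the exact two-sided permutation p was 0.2 (0.2 adjusted over the 6 pairs). Without WT replicate 3, which had the lowest ratio of the WT libraries, the difference was 0.17. Between the engineered strains the ratio was lower in gCXC, with differences of -3.36 ± 0.09 from gXlnRC and -3.79 ± 0.11 from gAraRC. It was lower in gXlnRC than in gAraRC, with a difference of -0.43 ± 0.13 as deposited and -0.21 after quantile normalization. These 3 pairs did not overlap, with an exact permutation p of 0.1 each.

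**Figure D3:**
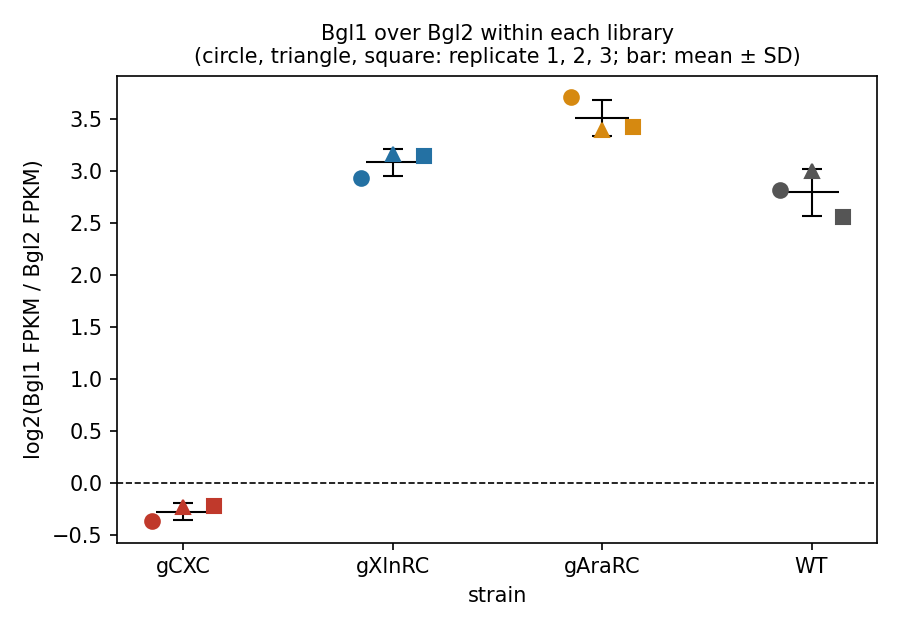
log2 of Bgl1 FPKM over Bgl2 FPKM within each library, by strain, with a circle, triangle and square for replicates 1, 2 and 3, a bar for the mean ± SD (n = 3) and a dashed line where both genes have the same FPKM. The 3 gCXC libraries lie just below that line, at a mean of -0.28, and the other 9 libraries lie above it, with strain means between 2.80 and 3.51.

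The genes whose profiles were most like each beta-glucosidase were found by Pearson correlation of log2(FPKM + 1) over the 12 libraries, given as a description, since the points fall into 4 strains. For Bgl1 the closest of 9124 other tested genes were PDE_01768 (r = 0.994) and PDE_00760 (r = 0.993), and 69 genes exceeded 0.95. PDE_00760 had 1286 ± 257 FPKM in gAraRC, 177 ± 26.4 in gXlnRC, 136 ± 8.69 in gCXC and 46.0 ± 12.3 in WT (SD, n = 3 each). PDE_01768 had the same order of means in a narrower range, with 69.6 ± 6.05 FPKM in gAraRC, 42.9 ± 1.61 in gXlnRC, 40.3 ± 0.419 in gCXC and 30.5 ± 1.77 in WT. Neither gene passed the test between gCXC and gXlnRC (limma, adjusted p = 0.113 for PDE_00760 and 0.290 for PDE_01768).

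For Bgl2 the closest genes were PDE_01385 (r = 0.992) and PDE_00607 (r = 0.9884), and 19 genes exceeded 0.95. The next gene was nearly tied with PDE_00607, at r = 0.9878. PDE_00607 reached 2435 ± 208 FPKM in gCXC, with 86.5 ± 4.85 in gAraRC, 51.1 ± 1.63 in gXlnRC and 43.8 ± 4.01 in WT (SD, n = 3 each). Its log2 change in gCXC against WT was 5.76 ± 0.08 (limma, adjusted p = 9.44e-14), above that of Bgl2. PDE_01385 was a gene of low level, with 14.5 ± 0.306 FPKM in gCXC and 5.93 ± 0.0678 in gAraRC. It had 5.36 ± 0.270 FPKM in gXlnRC and 4.64 ± 0.304 in WT. PDE_01385 did not pass the test between gXlnRC and WT (limma, adjusted p = 0.0640) or between gXlnRC and gAraRC (adjusted p = 0.144). Bgl2 and PDE_00607 were called in both of these comparisons. The gene table at hand describes another strain's assembly and matched 0 of the 9979 tags, so no name or role is given for these 4 genes.

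**Figure D4:**
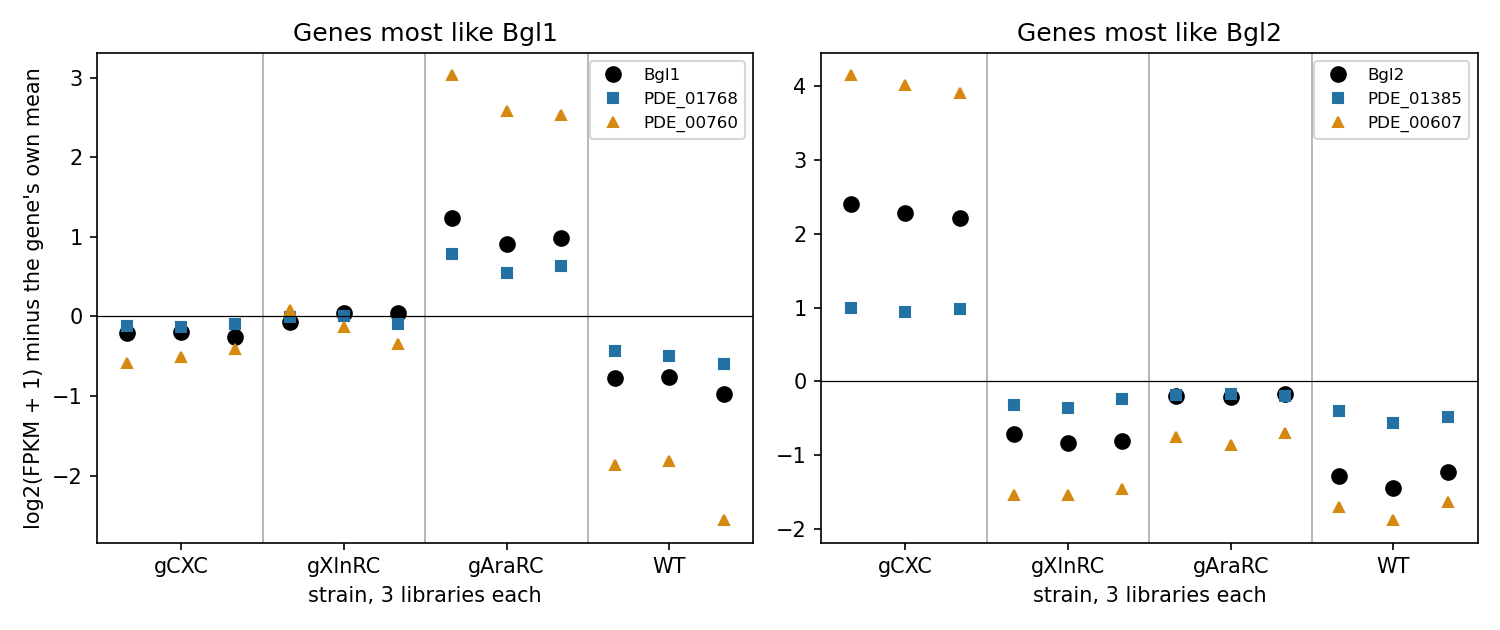
log2(FPKM + 1) minus each gene's own mean over the 12 libraries, by strain with 3 libraries each, for Bgl1 (left, black circles) and Bgl2 (right, black circles) with the genes most correlated with each. The Bgl1 panel is highest in gAraRC and lowest in WT, with a wider range for PDE_00760, and the Bgl2 panel is highest in gCXC and, by the means, lowest in WT.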

How the data were processed

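mRNA libraries were made with a capture and a stranded kit, per the labels' protocols. The authors deposited 1 table of FPKM values with a column per library. The tools listed in the submitters' processing notes, without their roles, are featureCounts 1.5.0-p1, HISAT2 2.0.0, DESeq2 and CASAVA 1.8. Build, annotation, strand setting and FPKM denominator were not stated there, so reads of overlapping or near-identical genes could be shared. No other genes of the cellulose pathway are grouped, since no source at hand names their tags.

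The 9125 genes that reached an FPKM of 1 in 3 or more libraries were tested with limma 3.58.1 in R 4.3.3 on log2(FPKM + 1), which understates changes of low genes. Group means of all 12 libraries were fitted (8 residual degrees of freedom, trended prior variance, two-sided, Benjamini-Hochberg over all tested genes per comparison). The FPKM values were not rescaled. The Bgl1 to Bgl2 ratio used exact permutation tests. Python 3.11.15 with numpy 2.4.6, pandas 2.3.3 and matplotlib 3.10.9 handled tables and plots.

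FPKM values were whole multiples of 1 read, which gave read numbers, lengths in steps of 3 nt and totals. A length was accepted only where every value of a gene came within 0.1 of a whole number, as for 9123 tested genes. At a length 1 step longer 21.8% of the values did. Reads summed over genes made up 99.99% or more of every total. The step of 3 nt is the one at which these sums match. It enters lengths and totals, not read numbers. The limma fit and the recovery were run on simulated data that had the same extra spread between libraries for every gene. Replicates as uneven as those of gAraRC were therefore not covered. Replicate libraries differed by more than sampling noise (chi-square per degree of freedom from 5.24 to 64.7), so each was counted. The members, tests and alternatives were chosen with earlier results of these data known. The 2 most correlated tags per gene were named by a rule set with them.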

Additional observations from a re-analysis of the deposited data

How the results depend on the processing

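The 12 log2 changes of Bgl1 and Bgl2 were recomputed with pseudocounts of 0.1 and 5, other filters, 3 other scalings, the compared strains only, no trend, a replicate block, voom on recovered reads and 1 library left out at a time. All 276 values kept their direction and 270 kept their side of the threshold. The other 6 concern Bgl1 in gCXC against gXlnRC (-0.22): without a trend the value was -0.22 (limma, adjusted p = 0.0518), and with 1 library left out it ran from -0.26 to -0.20 (highest adjusted p 0.102); the cause was not tested. The call held at -0.40 with quantile normalization (adjusted p = 0.000907) and in a fit of these strains only (adjusted p = 0.00396). Against WT, Bgl2 in gCXC ran from 3.40 to 3.69 and Bgl1 in gAraRC from 1.78 to 2.23. All 138 counts of called genes stayed within 1.5 times. Whether replicate numbers shared between strains pair libraries was not settled, since pairs with different numbers were not compared. Of 18 same-numbered pairs, 3 had deviations correlated above 0.1 (range -0.09 to 0.17), and all 3 were of replicate 1. With the replicate block no call of either gene changed (Bgl1 in gCXC against gXlnRC at -0.22, adjusted p = 0.0411), and called genes in gCXC against WT numbered 4579. The ratio of Bgl1 to Bgl2 kept its direction in all 60 pairwise values, with differences of -0.21 for gXlnRC against gAraRC after quantile normalization and 0.17 to 0.39 for gXlnRC against WT with 1 library left out, and 3 against 3 libraries cannot give a permutation p below 0.1. The correlations with the 4 named genes, checked under alternatives chosen after seeing the data, stayed between 0.982 and 0.997. Whether these genes stayed the closest was not rechecked.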

Other observations

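Genes whose tags are numbered within 5 of each beta-glucosidase were counted as a description of its surroundings in tag order, since positions are not used here. Around Bgl1, 9 of 10 such genes were tested. In gCXC against WT 1 was called higher and 2 lower, and in gXlnRC 4 higher and 2 lower. In gAraRC 6 were higher and 1 lower, with log2 changes of the 9 between -0.66 and 1.37, below the 1.88 of Bgl1. In gXlnRC their highest change was 0.89, above the 0.84 of Bgl1, and in gCXC it was 0.27, below its 0.62. Around Bgl2 all 10 were tested. In gCXC against WT 1 was called higher and 1 lower, with log2 changes between -0.43 and 0.23, against 3.63 for Bgl2 itself. In gXlnRC 1 was called higher and 2 lower, and in gAraRC 1 higher and 6 lower. The median log2 change of these genes in gAraRC was -0.37, close to the -0.34 of all tested genes. Bgl2 itself rose by 1.13 there. Across all tested genes 50.3% were called in gCXC, 54.6% in gXlnRC and 76.1% in gAraRC, each against WT.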
